A study of Mus musculus with 12 samples.

Results

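Neuropeptide and granin transcripts were followed in the striatum of mice in which a factor for ribosomal RNA synthesis was deleted through D1R-Cre. The 10 genes were a chosen list: Tac1, Pdyn, Penk, Cartpt, Sst, Npy, Cck, Scg2, Scg5 and Chgb, out of 12393 genes with a probe set of their own on the array. Each was read by 1 probe set, and all 10 were among the 8256 genes kept by a filter on low values. At 13 weeks the peptide genes of the projection neurons Tac1 and Penk, and the granin genes Scg5 and Chgb, were 2.61 to 3.15-fold lower in mutants than in controls, while Scg2 was 1.68-fold higher. Pdyn, also a peptide gene of the projection neurons, did not pass the test at either age. Neither did the interneuron peptide genes Sst, Npy and Cck. Cartpt was 3.71-fold higher in mutants at 9 weeks, when Tac1 and Penk had not passed.

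The study used C57Bl/6 mice, 1 array per mouse, in 4 groups of 3: controls at 9 weeks, TIF-IAD1RCre mutants at 9 weeks, controls at 13 weeks and TIF-IAD1RCre mutants at 13 weeks. TIF-IA, encoded by Rrn3, lets RNA polymerase I start transcription of ribosomal RNA genes, and the D1R promoter directs Cre to cells expressing that dopamine receptor. The alleles of the controls are not given in the sources used here. The labels name the tissue as striatum and the cell type as medium spiny neurons, and Xist and Eif2s3y marked 1 of 3 mice as female in both control groups and in the mutants at 9 weeks, but all 3 mutants at 13 weeks.

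Neuropeptides are cut from larger precursor proteins, packed into dense core vesicles and released alongside fast transmitters. In the striatum, direct pathway neurons make tachykinins and dynorphin from Tac1 and Pdyn, and indirect pathway neurons make enkephalin from Penk. A small class of local interneurons makes somatostatin and neuropeptide Y. Granins are acidic proteins of the dense core vesicle that help to sort and condense the cargo.

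Promoter sequences were looked at because the genes moved in different directions while many peptide genes are known targets of cAMP signalling. RefSeq's table for GRCm38.p6 matched 9 of the 10 genes by symbol, all but Penk, with 250 bases before the start and 50 after it. The cAMP response element TGACGTCA reads the same on both strands. It stood in the promoters of 4 of these 9 genes and in those of 2.03% of all 27025 genes with a promoter of this length. The 4 sequences follow, with 50 bases on either side of the element in capitals, 5′ to 3′ on the gene's strand.
Chgb, chr2:132781520-132781627, plus strand: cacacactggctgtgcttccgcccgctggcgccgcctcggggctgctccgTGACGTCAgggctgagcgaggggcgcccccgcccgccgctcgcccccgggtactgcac
Scg2, chr1:79440037-79440144, minus strand: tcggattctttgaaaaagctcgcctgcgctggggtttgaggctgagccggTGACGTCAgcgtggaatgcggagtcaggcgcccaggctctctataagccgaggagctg
Cartpt, chr13:99900738-99900845, minus strand: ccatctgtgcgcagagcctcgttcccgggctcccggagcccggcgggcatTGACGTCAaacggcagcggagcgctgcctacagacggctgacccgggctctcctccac
Sst, chr16:23890835-23890942, minus strand: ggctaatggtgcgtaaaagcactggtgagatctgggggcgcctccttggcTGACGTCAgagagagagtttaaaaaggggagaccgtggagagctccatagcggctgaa
The first base of the element lay 72 bases before the start in Chgb, 68 in Scg2, 112 in Cartpt and 48 in Sst. These 4 genes did not share a direction of difference: as given below, Chgb fell, Scg2 rose at 13 weeks, Cartpt rose at 9 weeks, and Sst did not pass.

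The shorter motif TGACG, counted on both strands and contained in the full element, stood in 7 of the 9 genes. Of all 27025 genes 23% had it. The E-box CACGTG stood in 2 of the 9, Tac1 and Cck, and in 8.09% of all 27025 genes. In both genes it was followed by CGTCA, the reverse complement of TGACG, with 12 bases between them in Tac1 and 13 in Cck, and both motifs are in capitals here.
Tac1, chr6:7554980-7555042, plus strand: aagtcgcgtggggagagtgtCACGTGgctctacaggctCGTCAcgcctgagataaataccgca
Cck, chr9:121495717-121495780, minus strand: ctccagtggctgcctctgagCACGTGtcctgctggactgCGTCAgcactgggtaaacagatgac
Tac1 fell at 13 weeks and Cck did not pass. The confidence interval of Cck at that age was wide (-1.18 to 0.86) and overlapped that of Tac1 (-1.99 to -1.14). Whether the outcomes of these genes differ was not tested. The letters TGACTCA and TATAAA were in 0 of the 9 genes, against 5.95% and 15.7% of all 27025 genes on either strand. CAGCTG was in 1, Chgb, against 18.3%. A match describes the sequence only.

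The deposited values are GCRMA signals on a log2 scale, so a difference of 1 is a doubling. Correlations across genes between arrays of a group were 0.973 or more, except for control mouse 3 at 13 weeks, at 0.936 and 0.944 with the other two controls. Mutant mouse 3 at 9 weeks and control mouse 1 at 13 weeks had high values of the thalamic and pallidal markers Slc17a6 (7.99 and 7.08) and Calb2 (7.74 and 8.0), the latter also a marker of some interneurons. All 15 shared medium spiny neuron markers on the array passed the filter, and so did all 11 astrocyte, 12 microglia and 8 oligodendrocyte markers on it, so the arrays read whole tissue. Rrn3 fell by 1.13 ± 0.18 log2 (SE, n = 3 per group) at 9 weeks (limma, adjusted p = 0.00748) and differed by -0.35 ± 0.18 at 13 weeks (adjusted p = 0.128); where the probe set lies in the gene, relative to the deletion, is not given in the sources used here.

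Differences were tested with limma over all 8256 genes, with a two-sided p adjusted by the Benjamini-Hochberg method and a threshold of 0.05. At 9 weeks 2 of the 10 genes passed, Cartpt higher and Chgb lower, where 5% of all genes tested passed, 2.02% higher and 2.98% lower. Without both mutant mouse 3 at 9 weeks and control mouse 1 at 13 weeks 1 of the 10 passed at 9 weeks, Cartpt. At 13 weeks 5 of 10 passed, 1 higher and 4 lower, where 45.3% of all genes passed, 23.4% higher and 21.9% lower. The total at 13 weeks is thus close to the background, with a larger share lower and a smaller share higher than over all genes. The change of the genotype difference between ages passed in 5 of 10, all towards lower values (Tac1, Penk, Cartpt, Scg5 and Chgb), where 18.4% of all genes passed and 6.38% did so in that direction. The median difference of the 10 genes was -0.17 at 9 weeks and -0.44 at 13 weeks, beside -0.02 and 0.0033 over all genes. Mutants and controls did not overlap in 6 of 10 genes at each age, where 35.5% of all genes did not overlap at 9 weeks and 54.6% at 13 weeks. Centring each array on its median would shift all differences at 13 weeks by -0.16.

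**Figure D1:**
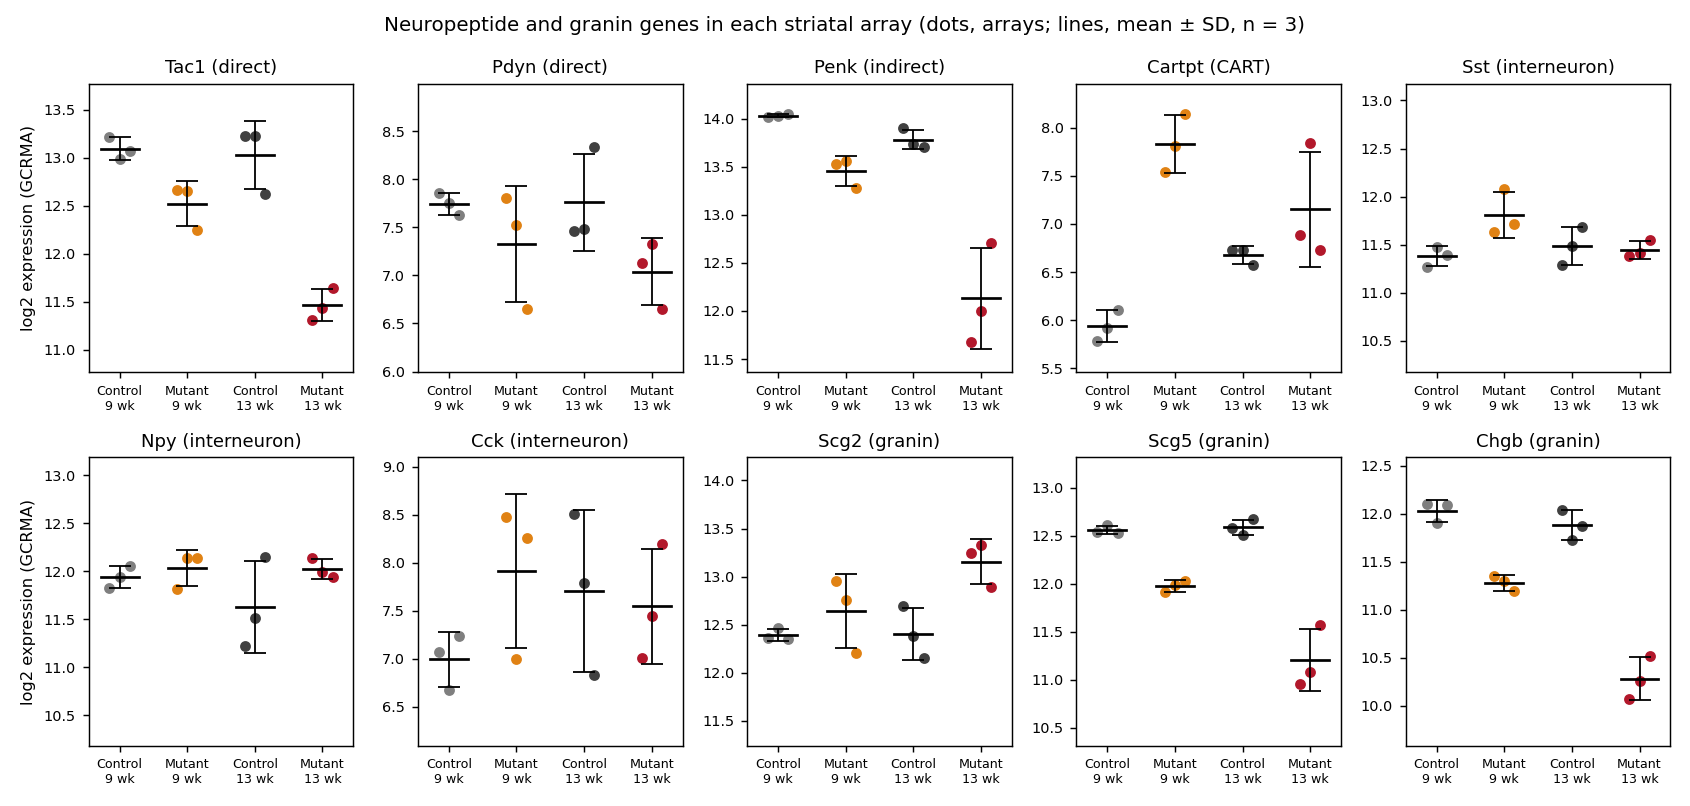
Log2 expression (vertical axes, each spanning 3 log2 units) of the 10 genes in each of the 12 arrays, by group, with the mean and SD of 3 mice. Tac1, Penk, Scg5 and Chgb step down from controls to mutants at 9 weeks and again at 13 weeks, Cartpt is highest in mutants at 9 weeks, and Sst and Npy stay within about 1 log2 unit throughout.

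Tac1 encodes the precursor of substance P and neurokinin A, the tachykinins of direct pathway neurons. Its log2 values at 9 weeks were 13.22, 12.99 and 13.07 in controls against 12.66, 12.65 and 12.25 in mutants. All 3 mutants lay below all 3 controls, but the difference of -0.57 ± 0.20 (SE, n = 3 per group) did not pass limma's test (adjusted p = 0.115). At 13 weeks the values were 13.23, 13.23 and 12.62 in controls against 11.31, 11.44 and 11.64 in mutants. Tac1 fell by 1.56 ± 0.20, a 2.96-fold difference (adjusted p = 5.93e-05), with no overlap between the groups. The fall ranged from -1.77 to -1.46 with any 1 array left out, passing in 12 of 12 such fits, and with a term for sex it was -1.47 (adjusted p = 0.000426). Without control mouse 3 at 13 weeks the difference at 9 weeks also passed (adjusted p = 0.0219), since that array enters the shared estimate of the spread.

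Pdyn encodes prodynorphin, the precursor of the dynorphins, which act on the kappa opioid receptor. At 9 weeks its log2 values were 7.86, 7.75 and 7.63 in controls against 7.81, 7.52 and 6.65 in mutants, with 1 mutant inside the range of the controls. At 13 weeks they were 7.46, 7.48 and 8.34 in controls against 7.13, 7.33 and 6.65 in mutants. The groups did not overlap at 13 weeks, but the difference of -0.72 ± 0.32 did not pass (adjusted p = 0.0802, 95% confidence interval -1.41 to -0.036). It passed with a term for sex (-1.04, adjusted p = 0.0226), after median centring (-0.89, adjusted p = 0.0285) and without mutant mouse 3 at 9 weeks (adjusted p = 0.0387), and over all alternatives the adjusted p ran from 0.0226 to 0.257. The difference at 9 weeks was -0.42 ± 0.32 (adjusted p = 0.49). Of the direct pathway peptides, Tac1 thus passed at 13 weeks and Pdyn did not, with a wide interval.

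Penk encodes proenkephalin, the opioid precursor of indirect pathway neurons, which carry the D2 and not the D1 dopamine receptor. At 9 weeks the values were 14.02, 14.03 and 14.05 in controls against 13.53, 13.56 and 13.28 in mutants. The mutants were again all lower, by -0.58 ± 0.22, without passing (adjusted p = 0.156). At 13 weeks they were 13.90, 13.74 and 13.71 in controls against 11.68, 12 and 12.71 in mutants, and every mutant was below every control. Penk fell by 1.65 ± 0.22, a 3.15-fold difference (adjusted p = 9.78e-05), and in the fits that left out 1 array it ranged from -1.94 to -1.43 and passed in all 12. The value with a term for sex was -1.66 (adjusted p = 0.000519).

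At 13 weeks the difference of the indirect pathway peptide Penk (-1.65) was thus close to that of Tac1 (-1.56), of the direct pathway. Pdyn, the other direct pathway peptide, differed by -0.72 and did not pass limma's test (adjusted p = 0.0802). Whether these genes differ from each other was not tested. The falls of Tac1 and Penk were smaller than most falls of shared medium spiny neuron markers. At 13 weeks 15 of 15 such markers fell, with a median of -2.32. Of these, 11 of the 15 had a lower value than Tac1 and 11 than Penk. Markers of each class did not all go one way. Of 3 D1 class markers tested, Sfxn1 (-1.42) and Isl1 (-0.99) fell and Ebf1 differed by 0.22 (adjusted p = 0.513), with a median of -0.99. Of 3 D2 class markers tested, Drd2 (-3.48) and Upb1 (-1.67) fell and Adk rose (0.72, adjusted p = 0.00202), with a median of -1.67. Upb1, which set this median, was near or below the filter level of the arrays (3.51 to 3.81) in the mutants, at 3.78, 2.10 and 3.77. The size of its fall is thus uncertain. In bulk tissue, fewer cells of a type and less RNA per cell cannot be told apart. Microglia markers rose in 12 of 12 at 13 weeks (median 2.70) and astrocyte markers in 9 of 11 (median 1.51), with array means of 2.56 to 3.00 and 1.76 to 1.92 above the controls of that age, and their part in the peptide values was not tested.

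Cartpt encodes the precursor of CART peptide, found in the ventral striatum and other brain regions. At 9 weeks its log2 values were 5.78, 5.92 and 6.11 in controls against 7.54, 7.81 and 8.14 in mutants. All mutants lay above all controls. Cartpt rose by 1.89 ± 0.26 (SE, n = 3 per group, adjusted p = 0.00439), a difference at least as large as that of 99.9% of the genes tested. It passed in all 12 fits without 1 array, from 1.74 to 2.04, and in all 13 other alternatives. At 13 weeks the values were 6.73, 6.73 and 6.57 in controls against 6.89, 7.84 and 6.73 in mutants. Mutant mouse 2 stood well above the controls at this age, while the other mutants were level with the highest control or just above it. At 0.48 ± 0.26 the difference fell short of the threshold (adjusted p = 0.158), and leaving that mouse out made it 0.13. Part of the narrowing lay in the controls, which were 0.74 ± 0.26 higher at 13 than at 9 weeks, with no overlap but without passing (adjusted p = 0.204).

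**Figure D2:**
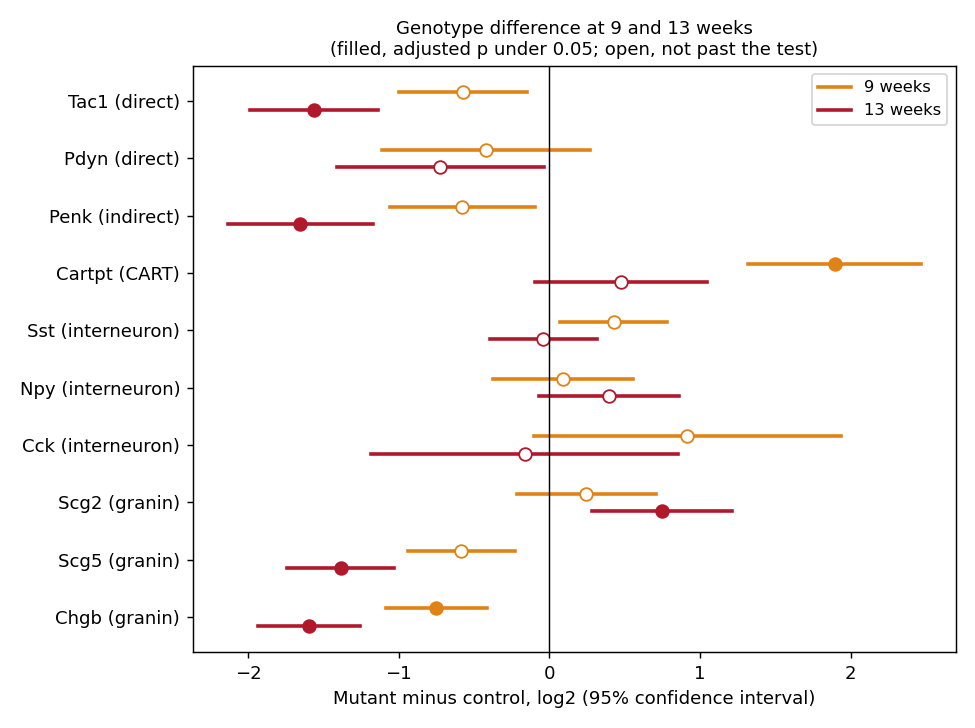
Mutant minus control on the log2 scale (horizontal axis) for each gene at 9 weeks (orange) and 13 weeks (red), with 95% confidence intervals from limma and filled points where the adjusted p was under 0.05. Cartpt stands apart to the right at 9 weeks at 1.89, and Tac1, Penk, Scg5 and Chgb lie between -1.65 and -1.38 at 13 weeks.

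Sst encodes somatostatin, made in the striatum by interneurons. At 9 weeks its log2 values were 11.27, 11.48 and 11.39 in controls against 11.63, 12.08 and 11.71 in mutants, all mutants above all controls. The difference of 0.43 ± 0.16 did not pass (adjusted p = 0.151, 95% confidence interval 0.073 to 0.78). At 13 weeks the values were 11.29, 11.49 and 11.68 in controls against 11.38, 11.41 and 11.55 in mutants. The mutants lay within the range of the controls, with a difference of -0.04 ± 0.16 (95% confidence interval -0.39 to 0.31). At this age a fall of Sst as large as that of Tac1 or Penk lies outside the interval.

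Npy encodes neuropeptide Y, which striatal interneurons make together with somatostatin. Its values at 9 weeks were 11.83, 11.94 and 12.06 in controls against 11.82, 12.14 and 12.14 in mutants, a difference of 0.09 ± 0.21. At 13 weeks they were 11.22, 11.51 and 12.15 in controls against 12.14, 11.99 and 11.94 in mutants. Here the spread was in the controls, since control mouse 3 was level with the highest mutant and the other two were lower. The difference was 0.40 ± 0.21 (adjusted p = 0.15, 95% confidence interval -0.07 to 0.86). Without control mouse 3 at 13 weeks it was 0.66 and passed (adjusted p = 0.00422), and with a term for sex it was 0.25 (adjusted p = 0.409). Control mouse 3 at 13 weeks was the female of its group, and all 3 mutants of that age were female.

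Cck encodes cholecystokinin, a peptide of some interneurons and of cortical and thalamic neurons that project to the striatum. At 9 weeks the log2 values were 7.07, 6.68 and 7.24 in controls against 8.48, 7.0 and 8.26 in mutants. At 13 weeks they were 8.51, 7.79 and 6.83 in controls against 7.01, 7.44 and 8.19 in mutants. Cck varied more within groups than any other of the 10 genes by its standard error, with differences of 0.92 ± 0.47 at 9 weeks (adjusted p = 0.284) and -0.16 ± 0.47 at 13 weeks (adjusted p = 0.795). Control mouse 1 at 13 weeks and mutant mouse 3 at 9 weeks, at 8.51 and 8.26, were the arrays with high Slc17a6 and Calb2, but mutant mouse 1 at 9 weeks had 8.48 with Slc17a6 at 3.20 and Calb2 at 2.65. Without both of those arrays the differences were 0.74 and 0.24, the latter with its sign turned, and neither passed.

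The 3 projection neuron peptides and the 3 interneuron peptides were set side by side as the mean difference of each array from the controls of its age. For Tac1, Pdyn and Penk the mutants lay at -0.29, -0.38 and -0.90 at 9 weeks and at -1.48, -1.27 and -1.19 at 13 weeks. For Sst, Npy and Cck they lay at 0.54, 0.30 and 0.60 at 9 weeks and at -0.098, 0.0056 and 0.29 at 13 weeks. The projection neuron mean was below the interneuron mean in every mutant, by 1.0 ± 0.43 (SD, n = 3) at 9 weeks and 1.38 ± 0.10 at 13 weeks, while the controls lay between -0.16 and 0.13 on this scale. At 9 weeks none of these 6 genes passed on its own. The interneuron mean at that age was not shared by its genes: Cck differed by 0.92, Sst by 0.43 and Npy by 0.09, and every mutant lay above all controls for Sst but not for Npy or Cck. The interneuron mean of the mutants at 13 weeks was 0.064 ± 0.20 (SD, n = 3) and the projection neuron mean -1.31 ± 0.15. These means describe chosen genes and were not tested.

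Other interneuron markers gave no common direction at 13 weeks: of 10 tested, the choline transporter gene Slc5a7 rose (1.33), the potassium channel gene Kcnc1 fell (-0.97), and the median was -0.36, with 2 of 10 passing against 45.3% of all genes. Both calls rest on low values, beside a filter level of 3.51 to 3.81. Slc5a7 was 4.56, 2.88 and 3.69 in controls, and Kcnc1 was 4.25, 3.85 and 4.45 in mutants. The lowest difference was -2.41, for Calb2, which did not pass and whose controls ranged from 3 to 8. Nos1, the nitric oxide synthase gene of the cells that make Sst and Npy, differed by -0.54 (adjusted p = 0.0759). At 9 weeks 0 of the 10 passed limma's test, and 0 had an unadjusted p under 0.05.

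**Figure D3:**
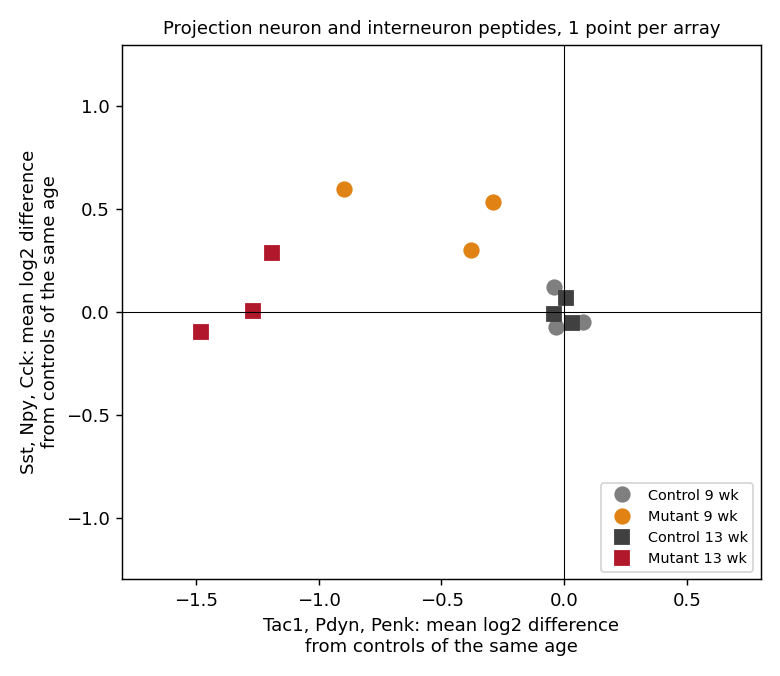
Mean log2 difference from controls of the same age for Tac1, Pdyn and Penk (horizontal axis) and for Sst, Npy and Cck (vertical axis), 1 point per array. The controls cluster at the origin, the mutants at 9 weeks (circles) lie to the left and above it, and the mutants at 13 weeks (squares) lie farther left, between -1.48 and -1.19, close to the level of the controls on the vertical axis.

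The granins did not move as a family. Chgb encodes chromogranin B, a major matrix protein of dense core vesicles. At 9 weeks its log2 values were 12.10, 11.90 and 12.09 in controls against 11.35, 11.30 and 11.19 in mutants. Chgb fell by 0.75 ± 0.15 (1.68-fold, adjusted p = 0.0241), with no overlap. Among the projection neuron peptides and granins it was the gene that passed at 9 weeks, but the call was lost without any 1 of the 6 arrays at 9 weeks (adjusted p from 0.0555 to 0.0946), with the difference between -0.82 and -0.71, and also without the pair of arrays named above (adjusted p = 0.06). At 13 weeks the values were 12.04, 11.73 and 11.87 in controls against 10.07, 10.26 and 10.52 in mutants, a fall of 1.60 ± 0.15 (3.02-fold, adjusted p = 7.88e-06) that passed in all 12 fits without 1 array.

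Scg5 encodes the protein 7B2, the chaperone of the prohormone convertase that cuts many peptide precursors. Its values at 9 weeks were 12.54, 12.61 and 12.53 in controls against 11.91, 11.99 and 12.03 in mutants. All mutants lay below all controls, but the difference of -0.58 ± 0.16 did not pass (adjusted p = 0.0621), and it passed without control mouse 3 (adjusted p = 0.0242) or mutant mouse 3 (adjusted p = 0.0235) at 13 weeks and in 4 of 13 other alternatives. At 13 weeks the values were 12.58, 12.51 and 12.67 in controls against 10.96, 11.08 and 11.57 in mutants. Scg5 fell by 1.38 ± 0.16 (2.61-fold, adjusted p = 3.76e-05), and the fall passed in all 12 fits without 1 array.

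Scg2 encodes secretogranin II, the precursor of secretoneurin, and went the other way. At 9 weeks its values were 12.36, 12.47 and 12.35 in controls against 12.95, 12.76 and 12.21 in mutants, with mutant mouse 3 below the controls, and the difference was 0.25 ± 0.21 (adjusted p = 0.556). At 13 weeks they were 12.69, 12.38 and 12.15 in controls against 13.25, 13.33 and 12.89 in mutants. Scg2 rose by 0.75 ± 0.21 (1.68-fold, adjusted p = 0.0129), with every mutant above every control. After median centring it was 0.59 (adjusted p = 0.0299), and without mutant mouse 2 at 13 weeks it was 0.66 and missed the threshold (adjusted p = 0.0561).

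The 4 genes that fell kept the same order of mice at 13 weeks. In Tac1, Penk, Scg5 and Chgb alike, mutant mouse 1 was lowest and mutant mouse 3 highest. The mean of the shared medium spiny neuron markers had that order too, at -2.64, -2.51 and -1.78 from the controls in mutant mice 1, 2 and 3. The order was not particular to the genes that fell, since Sst and Cck had it too, Cck from 7.01 to 8.19. Pdyn, Npy, Scg2 and Cartpt were lowest in mutant mouse 3. This order was noticed after the values were seen.

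Age was compared within each genotype, using the same arrays as the comparisons above. In controls, 0 of the 10 genes passed limma's test between 9 and 13 weeks, where 0.145% of all genes passed (0.0848% higher and 0.0606% lower), and 1 of the 10, Cartpt, had an unadjusted p under 0.05. With array weights 2 of the 10 passed, but so did 1926 of all genes in place of 12. In mutants 4 of 10 fell from 9 to 13 weeks and 0 rose, where 32.7% of all genes passed, 16.6% lower and 16.1% higher. They were Penk (-1.33 ± 0.22, adjusted p = 0.000721), Tac1 (-1.06 ± 0.20, adjusted p = 0.00147), Chgb (-1.0 ± 0.15, adjusted p = 0.000435) and Scg5 (-0.77 ± 0.16, adjusted p = 0.00333), and each passed in all 12 fits without 1 array. Cartpt differed by -0.68 ± 0.26 in mutants (adjusted p = 0.0679), and without mutant mouse 2 at 13 weeks by -1.02 with an adjusted p of 0.00396.

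The rest of the peptide system was described through lists of genes, of which the members tested are those that passed the filter. Of 17 other granin and dense core vesicle genes tested, 8 fell and 1 rose at 13 weeks, with a median of -0.49. At this age 21.9% of all genes fell and 23.4% rose, 45.3% in all, so a total of 9 in 17 is near the background. The split was not, since a larger share fell and a smaller share rose than over all genes. The synaptic GTPase gene Rab3a fell by 2.34, Ptprn, which encodes a membrane protein of the vesicle, by 1.46, and Ica1 by 1.43, or by 0.91 in its other probe set. Scg3, which encodes the granin secretogranin III, rose by 1.26 (adjusted p = 1.45e-05). Its values were 11.90, 11.88 and 11.85 in controls against 13.28, 13.15 and 12.99 in mutants. Among the granin genes named here Scg2 and Scg3 were thus higher, and Chgb, Scg5 and Chga (-0.97) lower, at 13 weeks. At 9 weeks 0 of the 17 passed limma's test, where 5% of all genes did, and 2 had an unadjusted p under 0.05.

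Of 15 peptide processing and degrading enzymes tested, 4 rose and 3 fell at 13 weeks, with a median of -0.12, a count near the 45.3% of all genes that passed. The cathepsin gene Ctsl rose by 2.32 and Nln, which encodes the peptidase neurolysin, by 1.14. Mme, which encodes the enkephalin-degrading enzyme neprilysin, fell by 2.08 and differed by -3.11 in its other probe set. In the probe set used the groups overlapped, with 8.89, 8.82 and 6.98 in controls against 5.48, 5.92 and 7.06 in mutants. Cpe, the carboxypeptidase that trims most peptide precursors, rose by 0.58 (adjusted p = 0.0182), and Pam, which amidates peptides, differed by -0.10 (adjusted p = 0.546). Ece2, an endothelin-converting enzyme gene, rose by 1.3 in the probe set used and differed by -0.66 in its other one, and did not pass as the mean of both, and at 9 weeks these values were 1.52 and 0.12. Pcsk7, which encodes a proprotein convertase, fell by 1.09 at 9 weeks (adjusted p = 0.0183), a call lost without control mouse 2 or 3 or mutant mouse 2 of that age (highest adjusted p = 0.0828).

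Of 10 peptide receptor genes tested, 3 rose and 2 fell at 13 weeks, with a median of 0.068, again near the 45.3% of all genes. Sstr2, a somatostatin receptor gene, rose by 3.04 (adjusted p = 3.51e-05), from 4.33, 4.25 and 4.33 in controls to 7.91, 7.33 and 6.79 in mutants, while Sst itself differed by -0.04. The neuropeptide Y receptor gene Npy5r fell by 1.31 and differed by -1.98 in its other probe set. Npy1r, another receptor gene for that peptide, also passed as lower (adjusted p = 0.00148), but its mutants, at 3.30, 3.34 and 3.49, lay below the filter level of every array (3.51 to 3.81), so the size of its fall is not given, and its other probe set did not pass the filter. Cckbr, a cholecystokinin receptor gene, rose by 1.33 (adjusted p = 0.00597). At 9 weeks Cckbr was higher by 1.26 (adjusted p = 0.0497), which passed in 3 of the 12 fits that left out 1 array. Its adjusted p went as high as 0.151 among those fits.

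Of 10 other neuropeptide precursor genes tested, 1 rose and 1 fell at 13 weeks, with a median of -0.40, fewer than the 45.3% over all genes. Nts, the neurotensin gene, rose by 2.28 (adjusted p = 0.00042), from 8.90, 8.46 and 7.85 in controls to 10.50, 10.84 and 10.72 in mutants. Nucb2, the precursor of nesfatin, fell by 1.65 (adjusted p = 0.000213). Both passed in all 12 fits without 1 array, as did Rab3a, Ptprn, Ica1, Scg3, Ctsl, Nln, Mme, Ece2, Sstr2, Npy1r, Npy5r and Cckbr at 13 weeks.

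**Figure D4:**
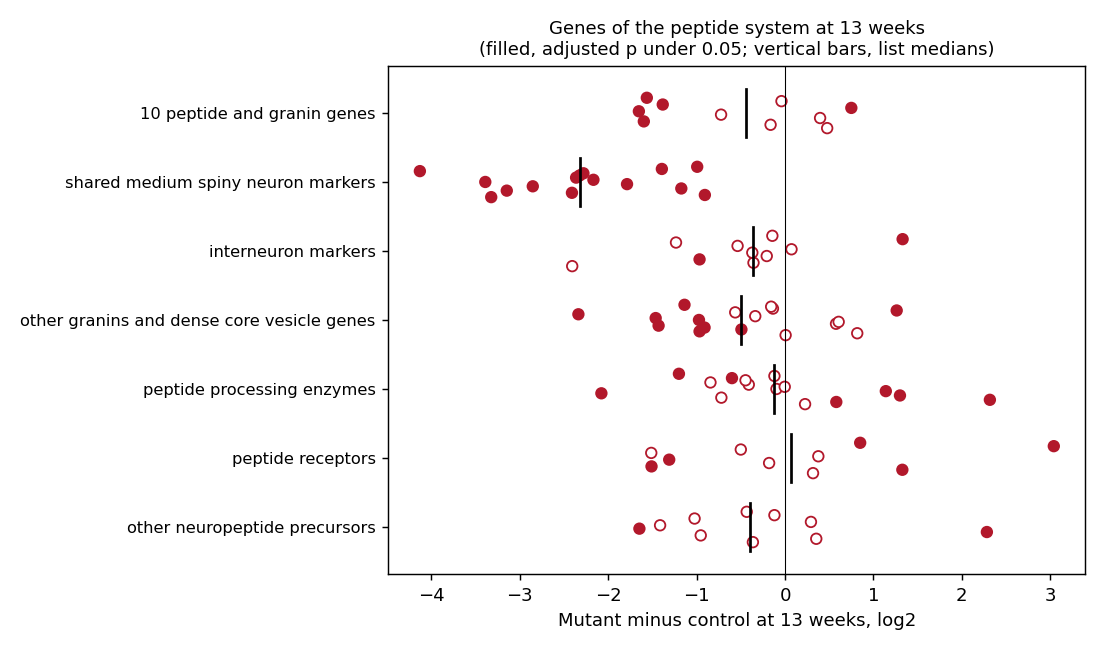
Mutant minus control at 13 weeks on the log2 scale (horizontal axis) for every tested gene of 7 lists, with filled points where the adjusted p was under 0.05 and a bar at each median. Shared medium spiny neuron markers lie wholly to the left, with a median of -2.32, while the peptide and granin genes and the other lists of the peptide system reach to both sides of 0.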

How the data were processed

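Per the submitters' processing notes the authors used GCRMA, which gives log2 signals, and the deposited numbers fit that scale. The version is not given in the sources used here. The values, 1.09 to 15.48 with array medians of 5.29 to 5.52, were used as deposited. GCRMA compresses low values, and the number of arrays limits the precision. Of 22690 probe sets, 20380 had a single gene symbol in the platform's annotation. Each gene was read by its probe set with the highest mean, and genes above their array's 40th percentile in at least 3 arrays were kept.

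All 12 arrays were fitted in R 4.3.3 with limma 3.58.1 (lmFit, eBayes), with 1 coefficient per group and 8 residual degrees of freedom. The members and lists were chosen with earlier results of these data known. Named beside the 10 genes were up to 4 genes of a list with the smallest p at 13 weeks, those called at 9 weeks, and the 3 genes most like each member. Chga, Cpe and Pam lie outside this rule and were chosen after their values were seen. Alternatives were other normalizations, filters, probe set rules, priors, array weights, a term for sex, a replicate block and arrays left out. The fit was tested on simulated data with known changes. Of changes of 1 log2 it recovered 56% at 9 weeks, 65% at 13 weeks and 27% for the change between ages. False calls ran from 3.66% to 7.41% over the comparisons. Each p-value sets a difference against the spread between mice within all 4 groups, drawn towards the spread of the other genes.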

Additional observations from a re-analysis of the deposited data

Results flagged for a closer look

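The genotype difference of 5 genes changed from 9 to 13 weeks by limma's interaction test over all 8256 genes, where 18.4% of all genes passed. The change, 13 weeks minus 9 weeks, was -0.99 ± 0.28 log2 for Tac1 (SE, n = 3 per group, adjusted p = 0.027), -1.08 ± 0.31 for Penk (adjusted p = 0.0324), -1.42 ± 0.37 for Cartpt (adjusted p = 0.0198), -0.80 ± 0.23 for Scg5 (adjusted p = 0.0307) and -0.85 ± 0.22 for Chgb (adjusted p = 0.0188). In Tac1, Penk, Scg5 and Chgb a negative difference grew, and in Cartpt a positive one shrank. These calls were sensitive to single arrays. Tac1, Penk and Scg5 each passed in 4 of the 12 fits that left out 1 array, and Cartpt and Chgb in 10. Without mutant mouse 1 at 13 weeks 0 of the 5 passed (adjusted p from 0.0552 to 0.0855, and 5 of the 5 kept their sign). Chgb was also lost without control mouse 2 at 9 weeks (adjusted p = 0.0505) and Cartpt without control mouse 1 at 9 weeks (adjusted p = 0.0531). With a term for sex Tac1 did not pass (adjusted p = 0.0567).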

How the results depend on the processing

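The falls of Tac1, Penk, Scg5 and Chgb at 13 weeks and the rise of Cartpt at 9 weeks passed under each of the 25 alternatives, 12 of which left out 1 array. Of the 10 genes, 2 passed at 9 weeks, and the count was 7 with array weights, 4 when the compared groups were fitted alone and 1 without both mutant mouse 3 at 9 weeks and control mouse 1 at 13 weeks, with 1 to 4 when 1 array was left out. For the change between ages 5 passed, against 8 with array weights, 3 in an unmoderated test, 2 without both of those arrays, and 0 to 5 when 1 array was left out. Array weights gave 2 calls in controls and 8 in mutants between ages. Over all genes these weights gave 1926 calls in place of 12 in controls and 5753 in place of 2700 in mutants. They gave 3833 in place of 413 at 9 weeks and 4301 in place of 1523 for the change between ages. The estimate of the weights stopped short of its convergence tolerance, with weights from 0.0587 (control mouse 3 at 13 weeks) to 23.7 (mutant mouse 2 at 9 weeks). Over all genes, 62 to 1358 passed at 9 weeks when 1 array was left out. The causes were not tested.

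Signs turned only in differences that did not pass. In controls between ages these were Scg2 after quantile normalization (-0.0067) and without both of those arrays (-0.13), and, with array weights, Tac1 (0.12), Pdyn (-0.26) and Scg5 (-0.037). In mutants between ages they were Cck with array weights (0.26) and Npy without both arrays (0.043), and at 13 weeks Cck without both (0.24). Leaving out 1 array gave -0.60 to 0.24 for Cck and -0.14 to 0.057 for Sst at 13 weeks, -0.12 to 0.043 for Npy in mutants, and in controls -0.17 to 0.14 for Tac1, -0.28 to 0.16 for Pdyn, -0.13 to 0.14 for Scg2 and -0.015 to 0.065 for Scg5.

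Whether same-numbered mice deviated together was not settled. The correlations across genes of their deviations from the group means were low, from -0.07 to 0.18, with 2 of 12 over 0.1. Still, 7 of 12 arrays were most like their own number, and how many would be so by chance was not worked out. With the replicate number as a block, 2, 5 and 5 of the 10 genes passed at 9 weeks, at 13 weeks and for the change between ages, and 5 in place of 4 for mutants between ages, where Scg2 passed (0.52, adjusted p = 0.0349).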

Other observations

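The genes most like each of the 10 over the 12 arrays were found by Pearson's r of their log2 values, as a description of a pattern that the group differences dominate. Penk was most like Hpca (r = 0.992), Gpr12 (0.991) and Arpp19 (0.989), which differed by -2.56, -3.18 and -2.04 at 13 weeks. Tac1 was most like Spock3 (0.979), Ap1ar and Atp6v1d (both 0.978), Chgb like Tgfa (0.988), Meis2 (0.987) and Clstn3 (0.985), and Scg5 like Coch (0.989), Eef1a2 (0.986) and Wnt2 (0.985). For Scg2 the nearest were Ccdc47 (0.969), Tle3 (0.959) and Ifrd1 (0.952), which were higher by 0.61, 1.94 and 1.35 at 13 weeks. Cartpt was nearest to Ptgds (0.93), Nt5c2 (0.922) and Mrps18c (0.917).

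Sst was nearest to Zfp358 (0.896), Egfl7 (0.886) and Sdhaf1 (0.847), and Npy to Pmm2 (0.929), Haus4 (0.875) and Cndp2 (0.853). Cck was nearest to Ccn3 (0.842), Vip (0.832) and Vsnl1 (0.822), and Pdyn to Mettl6 (0.941), Sec23a (0.918) and Taf11 (0.914). These r were all lower than those given above for Tac1, Penk, Scg2, Scg5 and Chgb. Vip encodes another neuropeptide, vasoactive intestinal peptide, and differed by 0.86 at 9 weeks and -0.43 at 13 weeks.

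Activity dependent targets of CREB, the protein that binds the cAMP response element, gave 2 rises among 11 genes tested at 13 weeks, Inhba (3.65, adjusted p = 0.000297) and Fos (2.92, adjusted p = 0.0415), with a median of -0.27, where 23.4% of all genes rose and 45.3% passed in either direction. Homer1 of the same list differed by -1.34 (adjusted p = 0.0604). At 9 weeks 0 of the 11 passed limma's test and 0 had an unadjusted p under 0.05. Their mean difference from the controls was 1.59, -0.011 and -0.78 in mutant mice 1, 2 and 3 at that age.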
